A study of Mus musculus with 800 samples.

Results

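The 8 transcription factor genes Tfap2e, Batf3, Bcl11b, Meis2, Nfix, Nfia, Nfib and Pou2f1 were followed in single cells. They were chosen as candidate factors of apical and basal identity in neurons of the mouse vomeronasal organ. They were taken by name from a count table of 28963 genes, and all 8 members were found in it. The cells came from 7 male OMP(GFP/wt) mice of strain B6;129P2-Omptm3Mom/MomJ, aged 66 days, so every cell carried 1 wild-type Omp allele and 1 allele that makes green fluorescent protein (GFP) in place of the olfactory marker protein. Cells were sorted as GFP+/Hoechst+/DRAQ7-, that is, as fluorescent, nucleated and live, from pools of 3 and 4 mice, and the pools were loaded on opposite sides of 1 Fluidigm C1 chip with 800 chambers. Omp is a gene of maturing and mature neurons, so a sort on GFP favours these over progenitors. Of the chambers, 406 were not labelled as a single cell, 63 of them as multiple cells, 18 as putative single cell and the others as empty, and the single cells were the remainder (49.25%). Which chamber received which pool is not given in the labels, so each group of cells was 1 unit and no test was made. The intervals in square brackets are exact 95% intervals, and for shares of cells they cover counting error only. For ratios of summed counts they assume that the counts within a cell are independent, and so leave out the spread between cells. Ratios in subsets of the cells can lie outside them, as for Nfix and Pou2f1 below.

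Vomeronasal sensory neurons form an apical layer, which expresses V1R receptors with the G protein subunit Gnai2, and a basal layer, which expresses V2R receptors with Gnao1. Both layers arise from common progenitors, and transcription factors set and maintain the difference. Tfap2e encodes AP-2 epsilon, a factor needed to maintain the basal programme, Meis2 encodes a homeodomain protein of the apical neurons, and Bcl11b encodes a zinc finger protein that takes part in the choice between the layers. Batf3 is a basic leucine zipper factor of the AP-1 group, Nfia, Nfib and Nfix belong to the nuclear factor I family, which binds DNA as dimers, and Pou2f1 is a widely expressed POU domain factor that binds the octamer motif.

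Cells were classed by their G protein counts. Apical cells had at least 30 counts of Gnai2 and under 20 of Gnao1, basal cells at least 30 of Gnao1 and under 30 of Gnai2, and double-positive cells at least 30 of both. Of the single cells, 67 were basal (17%), 32 double-positive (8.12%) and 20 unclassified (5.08%), and all others (69.8%) were apical. Median total counts were 149708 in apical, 150630 in basal and 158248 in double-positive cells, against 20731 in empty chambers. Omp, the marker behind the labelled cell type, reached 10 counts in 98.5%, 97% and 93.8% of the cells of these classes. Markers of progenitors, endothelium, mesenchyme and ensheathing glia had a median summed level of 0 in every class. A few cells carried markers of sustentacular (supporting) or immune cells, and these were 14 apical cells, 1 basal cell and 1 double-positive cell. This means at least 10 counts of at least 2 of the sustentacular genes Cbr2, Cyp2a5 and Sox2 and the immune gene Cd74. Cells with immune genes alone were therefore not counted here or below.

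A cell is said here to hold a gene when it had at least 10 counts of it. Of the 2396582 values above 0 in single cells, 54.5% were at least 10 and 31.8% were 1 or 2, with 13.7% between, so most genes in a cell were either held or close to 0. Chambers labelled empty were measured the same way. Of these, 19.4% had at least 50000 counts, as most cells did, and the highest had 319287, more than any single cell, so what they held is not known from the label alone. Meis2 was held by 31.4% of all empty chambers and by 20.6% of those under 50000 counts, Bcl11b by 9.54% and 1.53%, Nfix by 6.46% and 1.53%, Pou2f1 by 6.15% and 1.91%, and each of the remaining members by under 3% of all of them. Where a gene is absent from a cell, absence from the cell and failure to capture its RNA cannot be told apart.

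The members lie on 5 chromosomes (GENCODE vM21, GRCm38), and all are protein coding. Tfap2e is at chr4:126716006-126736240 on the minus strand, Batf3 at chr1:191097847-191108945 on the plus strand, Meis2 at chr2:115863064-116065839 and Nfix at chr8:84699876-84800344, both on the minus strand. Bcl11b lies at chr12:107910403-108003602 and Pou2f1 at chr1:165865154-166002678, both on the minus strand, Nfia at chr4:97772734-98118874 on the plus strand and Nfib at chr4:82290173-82705750 on the minus strand. RefSeq promoter windows on GRCm38.p6, from 250 bases before to 50 bases after the start, matched 7 of the 8 members. The 4 windows below belong to Tfap2e and Batf3, the members that were lower in apical cells, and to Meis2 and Nfix, the more widely held of the members that were higher there, with motif matches in capitals.
Tfap2e (chr4:126736220-126736519, minus strand): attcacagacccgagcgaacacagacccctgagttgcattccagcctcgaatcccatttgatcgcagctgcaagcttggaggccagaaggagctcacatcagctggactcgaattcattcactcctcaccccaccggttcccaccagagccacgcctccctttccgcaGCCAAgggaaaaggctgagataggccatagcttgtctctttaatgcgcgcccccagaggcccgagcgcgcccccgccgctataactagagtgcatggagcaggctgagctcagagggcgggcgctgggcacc
Batf3 (chr1:191098164-191098463, plus strand): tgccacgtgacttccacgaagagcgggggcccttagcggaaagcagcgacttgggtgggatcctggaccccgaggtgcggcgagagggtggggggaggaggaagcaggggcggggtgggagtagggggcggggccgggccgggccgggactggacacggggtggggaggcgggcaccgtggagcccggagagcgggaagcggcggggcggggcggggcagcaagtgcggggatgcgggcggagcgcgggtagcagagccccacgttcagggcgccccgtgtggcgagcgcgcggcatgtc
Meis2 (chr2:116064570-116064869, minus strand): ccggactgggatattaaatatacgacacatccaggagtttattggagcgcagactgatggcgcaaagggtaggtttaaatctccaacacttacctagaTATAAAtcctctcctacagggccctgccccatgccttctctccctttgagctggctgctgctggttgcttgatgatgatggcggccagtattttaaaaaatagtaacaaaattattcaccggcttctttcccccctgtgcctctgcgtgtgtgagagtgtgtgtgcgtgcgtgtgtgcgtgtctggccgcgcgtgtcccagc
Nfix (chr8:84780033-84780332, minus strand, the first of 4 starts): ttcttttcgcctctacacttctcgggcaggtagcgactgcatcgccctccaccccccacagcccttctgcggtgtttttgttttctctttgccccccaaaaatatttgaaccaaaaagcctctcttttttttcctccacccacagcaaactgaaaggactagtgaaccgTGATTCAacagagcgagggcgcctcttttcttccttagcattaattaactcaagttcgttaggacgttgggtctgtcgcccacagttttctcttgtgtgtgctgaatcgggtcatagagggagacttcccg
Both strands were searched for 6 motifs, and shares are of all 32817 promoter windows. The AP-2 palindrome GCCNNNGGC is in 16.6% of windows, the nuclear factor I half-site TTGGC in 46.7%, the MEIS core TGACAG in 19.2%, the octamer ATGCAAAT in 1.74%, the AP-1 site TGANTCA in 7.81% and the TATA box TATAAA in 13.6%. The Tfap2e window held 1 nuclear factor I half-site, the Meis2 window 1 TATA box, the printed Nfix window 1 AP-1 site, and the Batf3 window no match. The other 3 Nfix windows held 1, 1 and 2 nuclear factor I half-sites. G and C made up 60.3% of the Tfap2e, 75.7% of the Batf3 and 51% of the Meis2 window, against a median of 52.7% over all windows. The 4 Nfix windows ran from 44.3% to 57.3% and lay on both sides of that median.

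Apical and basal cells were compared first. The summed count of each gene was divided by the class total without the 461 receptor genes, and a gene is called higher or lower when it had at least 50 counts over both classes, was at least 2-fold apart over all cells, and at least 1.5-fold apart the same way in the chambers with title numbers 1 to 10 and in those with 11 to 20. Of the 8 members, 3 were higher in apical cells (Meis2, Nfix and Nfia) and 2 were lower (Tfap2e and Batf3), beside 13.1% of 17252 genes called higher and 5.89% called lower. The median log2 ratio was -0.01 over the members and 0.12 over all genes tested. Bcl11b, Nfib and Pou2f1 were not called in either direction.

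**Figure D1:**
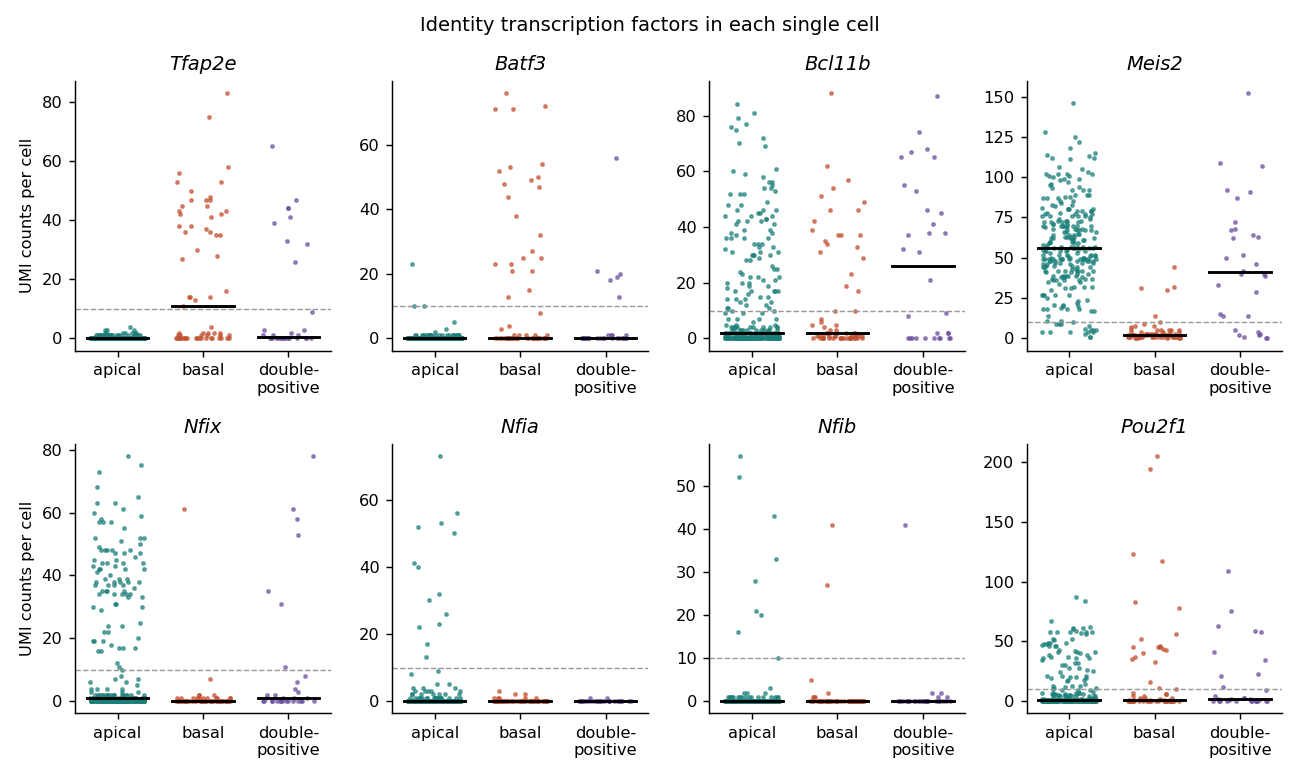
Unique molecular identifier (UMI) counts of the 8 genes in each apical, basal (n = 67) and double-positive (n = 32) cell, 1 point a cell, with the class median as a bar and 10 counts as a dashed line; the vertical scale differs between genes. Tfap2e did not exceed 4 counts in any apical cell, Meis2 was at 10 or more in 94.2% of them, and Bcl11b and Pou2f1 were spread over all classes.

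Tfap2e had the largest ratio between the classes, while Meis2 differed more in the share of cells that held it. In basal cells it ran from 0 to 83 counts with a median of 11, and the cells fell into groups: 21 at 0, 11 at 1 or 2, 1 at 4, and 34 from 11 upwards. In apical cells it ran from 0 to 4 with a median of 0. Every basal cell that held Tfap2e was thus above every apical cell, while the basal cells without it overlapped them. Tfap2e was held by 34 of 67 basal cells (50.7% [38.2–63.2]) and by 0 apical cells, which allows a share of up to 1.33%, beside 2.46% of empty chambers. Its summed level was 13.2 per 100000 counts in basal and 0.125 in apical cells, a log2 ratio of -6.73 apical over basal. The counting interval of the basal over apical ratio had a lower end of 80.5. The ratio was 150 in title numbers 1 to 10 and 84.2 in 11 to 20.

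Many basal cells therefore had the Gnao1 profile with few or no counts of Tfap2e, 32 of 67 (47.8%) under 3 counts. These cells were still V2R cells by receptor (V2R counts here leave out the family C coreceptors): V2R counts exceeded V1R counts in 29 of 32, against 33 of 34 cells that held Tfap2e. They had a median of 67.5 counts of Gnao1 against 82, of 76.5 counts of Omp against 95, and a median total of 141819 against 162924. Robo2, an axon guidance receptor of basal neurons, was held by 16 of 32 cells without Tfap2e and by 29 of 34 with it. Vmn2r1, a V2R coreceptor of family C, was held about equally, by 25 of 32 and 26 of 34. Batf3 was held by 10 of 32 and 13 of 34, Bcl11b by 10 and 13, and Pou2f1 by 10 and 11. The part of the lower total in the lower Robo2 share was not tested. Tfap2e reached 3 counts in 52.2% of basal cells, and in 51.5% after every cell was thinned to 50000 counts.

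Batf3 was the other basal gene. It ran from 0 to 76 counts in basal cells with a median of 0, and the 23 cells that held it had 13 to 76 counts with a median of 44. In apical cells the median was also 0 and the highest value 23, and only 3 cells held it, with 10, 10 and 23 counts. The shares were 34.3% [23.2–46.9] of basal and 1.09% [0.226–3.15] of apical cells, beside 2.77% of empty chambers. Batf3 was 51.1-fold [40.5–65.4] higher in basal cells. The apical over basal ratio was 0.00901 in title numbers 1 to 10 and 0.0317 in 11 to 20, where all 3 apical cells with it were. The highest basal values lay far above the apical ones, but most basal cells had no counts of Batf3 and overlapped the apical class.

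Tfap2e and Batf3 were held by the same basal cells about as often as their shares give. Both were held by 13 cells, where the product of the 2 shares gives 11.7, and Spearman's rho between their counts over the 67 basal cells was 0.0070. The family C receptors split basal cells further, since Vmn2r1 and the group Vmn2r2 to Vmn2r6 are coreceptors of different V2R subfamilies. Vmn2r7, also of family C, was not used for this split. Batf3 was held by 21 of 51 cells with Vmn2r1 and by 2 of 16 without it. It was held by 5 of 12 cells with Vmn2r1 alone, 16 of 39 with both kinds, 1 of 9 with Vmn2r2 to Vmn2r6 alone and 1 of 7 with neither. Tfap2e was held by 5 of 12, 21 of 39, 5 of 9 and 3 of 7 cells of the same groups, and Pou2f1 by 4 of 12, 9 of 39, 5 of 9 and 3 of 7. The median total was 131053 in the 9 cells with Vmn2r2 to Vmn2r6 alone and 156155 in those with Vmn2r1 alone, and its part was not tested.

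Meis2 was the most widely held member. In apical cells its lowest value was 1 count and its median 56, and 94.2% [90.7–96.6] of the cells held it. In basal cells it ran from 0 to 44 with a median of 2, and 6 of 67 cells held it (8.96% [3.36–18.5]). The highest apical cell had 3.32 times the counts of the highest basal cell. The ranges overlapped, since 29.8% of apical cells lay at or under the highest basal count and 61 of 67 basal cells at or above the lowest apical count, but 1 basal cell exceeded the apical lower quartile of 41.5. The limit of 10 counts was crossed by those 6 basal cells and by 16 apical cells below it. Meis2 was 12.3-fold [11–13.8] higher in apical cells, 37.7 against 3.07 per 100000 counts, and 15.4-fold and 9.53-fold in the 2 sets of title numbers.

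Low counts of Meis2 were common in basal cells. It stood at 3 to 9 counts in 24 of 67 of them (35.8%), where the median over 2349 genes held by a like share of basal cells was 2.99%. Summed over a class, Meis2 came to 53% of Gnai2 in basal cells, 51.9% in apical cells, 58.1% in double-positive cells, 55.4% in multiple-cell chambers and 47.7% in empty chambers. Among empty chambers it was 37.6% in those under 50000 counts and 59.5% in the others. Thinned to 50000 counts, 15.2% of basal cells had 3 or more counts of Meis2. The 16 apical cells under 10 counts of Meis2 had a median total of 124930, a median of 75 counts of Gnai2 and of 147.5 counts over V1R genes, and 9 of them held Nrp2, a guidance receptor of apical axons.

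Nfix was held by a minority of apical cells and almost no basal cells. In apical cells it ran from 0 to 78 with a median of 1, and 91 cells held it (33.1% [27.6–39]), with a median of 39 counts in those cells. In basal cells it ran from 0 to 61 with a median of 0, and 1 of 67 held it. Empty chambers held it in 6.46%. Nfix was 10.9-fold [8.80–13.7] higher in apical cells, but 61 of the 85 basal counts came from 1 cell, and without that cell the ratio was 38.1. The ratios in the 2 sets of title numbers were 58.3 and 4.07. That cell had 21 counts of Gnai2, 51 of Gnao1, 77 over V1R and 36 over V2R genes, and held neither Robo2 nor Vmn2r1. The share of apical cells with Nfix was 39.9% [32.1–48.1] in title numbers 1 to 10 and 24.6% [17.2–33.2] in 11 to 20.

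Nfia was rare. It was held by 14 apical cells (5.09% [2.81–8.39]), with counts from 13 to 73, by 0 of 67 basal cells, which allows up to 5.36%, and by 0 of 32 double-positive cells. The summed counts were 617 in apical and 12 in basal cells, 12.7-fold [7.20–24.6] higher in apical cells. Of the 14 cells that held it, 6 carried sustentacular or immune markers, and with all such cells left out the ratio was 8.58. The direction was the same without them, and the part of those markers in the remaining cells was not tested.

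**Figure D2:**
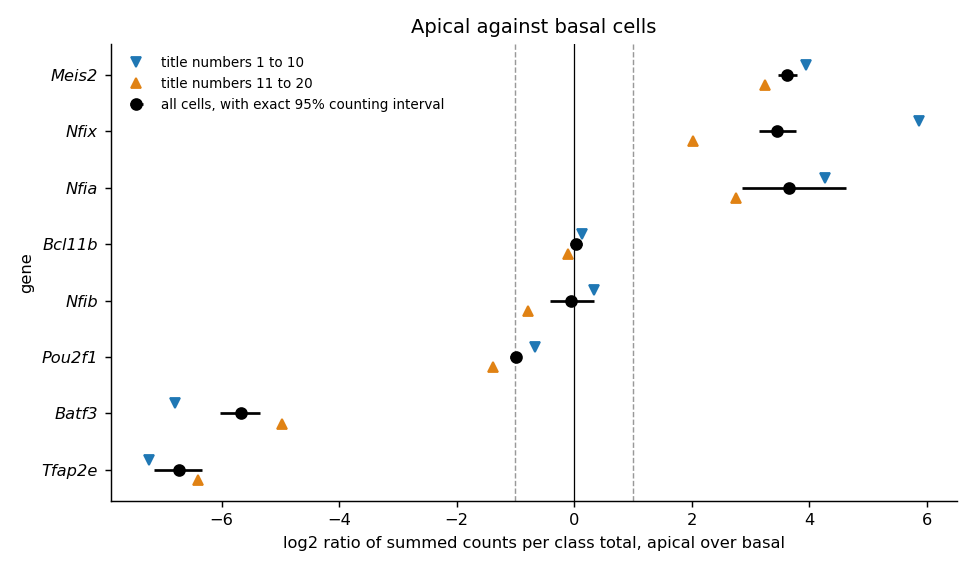
Log2 ratio of summed counts, each divided by its class total, in apical over basal cells for the 8 genes; black points are all cells with exact 95% counting intervals, coloured triangles the chambers with title numbers 1 to 10 and 11 to 20, and dashed lines a 2-fold difference. Meis2, Nfix and Nfia lie above 2-fold in both sets, Batf3 and Tfap2e below in both, and Bcl11b and Nfib near 0.

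Nfib was rare too, and most apical cells with it carried markers of other cell types. It was held by 9 apical cells (3.27%), of which 7 carried sustentacular or immune markers, by 2 of 67 basal cells, with 27 and 41 counts, and by 1 of 32 double-positive cells. The apical over basal ratio was 0.967 [0.752–1.26]. It was 2.01 without the basal cell of 41 counts, and with marker-carrying cells left out Nfib was 2.02-fold higher in basal cells, so single cells set its direction. Over the apical cells, Nfia and Nfib were held together by 6 cells, where the product of the shares gives 0.458. Spearman's rho between them was 0.32 over the apical and 0.35 over the 67 basal cells.

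Bcl11b did not differ between apical and basal cells beyond counting error. It ran from 0 to 84 in apical cells and from 0 to 88 in basal cells, with a median of 2 in both. It was held by 36.7% [31–42.7] of apical cells and by 23 of 67 basal cells (34.3% [23.2–46.9]), with medians of 34 and 37 counts where held. The ratio of summed counts was 1.02 [0.948–1.09]. In double-positive cells the median was 26 counts, and 17 of 32 held it (53.1% [34.7–70.9]). Its summed level there was 1.80-fold [1.67–1.94] that of apical cells and 1.84-fold [1.67–2.01] that of basal cells. Multiple-cell chambers held it in 58.7%, and the double-positive cells with Bcl11b had a median total of 180380 against 140503 in those under 3 counts. Bcl11b reached 3 counts in 59.4% of double-positive, 48.7% of apical and 44.8% of basal cells, and at a common 50000 counts in 56.3%, 38.3% and 34.8%. The part of the depth difference in the summed levels was not tested.

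Pou2f1 was held by all classes, with its highest values in basal cells. It ran from 0 to 87 in apical cells and from 0 to 2.36 times that maximum in basal cells, with a median of 1 in both. It was held by 68 apical cells (24.7% [19.7–30.3]), 21 of 67 basal cells (31.3% [20.6–43.8]) and 10 of 32 double-positive cells (31.3%). The shares overlapped within counting error, while 4 basal cells, at 1.34 to 2.36 times the highest apical count, exceeded every apical cell. Pou2f1 was 1.99-fold [1.87–2.13] higher in basal cells, just under the 2-fold limit, and 1.73-fold without the highest basal cell. It was 1.59-fold higher in title numbers 1 to 10 and 2.61-fold in 11 to 20, and 7 of 13 other settings called it higher in basal cells. Over all settings, called or not, the ratio was at most 3.07-fold. Basal cells with Pou2f1 had a median of 498 counts over V2R genes, against 315.5 in those without. Cd247 overlaps exons of Pou2f1 on the opposite strand and had 1311 counts in single cells. Whether counting used the strand is not stated, so the 2 genes may share reads.

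The amount of each factor in the cells that held it was set beside that of other genes held by a like share of the same cells, within 5 percentage points. Counts were made from the 3′ end of each transcript, so gene length was not used to scale them. In basal cells the median where held was 41.5 counts for Tfap2e, against a median of 37 and quartiles of 33 and 41 over 686 such genes, and 44 for Batf3, against 35 (31 and 39) over 1150 genes. Pou2f1 was at 45 counts in basal cells against 35 (30.5 and 38.5), and at 39 in apical cells against 36. The basal values of these 3 genes were above the upper quartile, and those of Batf3 and Pou2f1 were also above the 90th percentile of 42.05 and 42 counts. Meis2 in apical cells was at 57 against 60.25 (48 and 74), Nfix at 39 against 37 (33 and 40), and Bcl11b at 34 against 37.5, all within the quartiles.

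**Figure D3:**
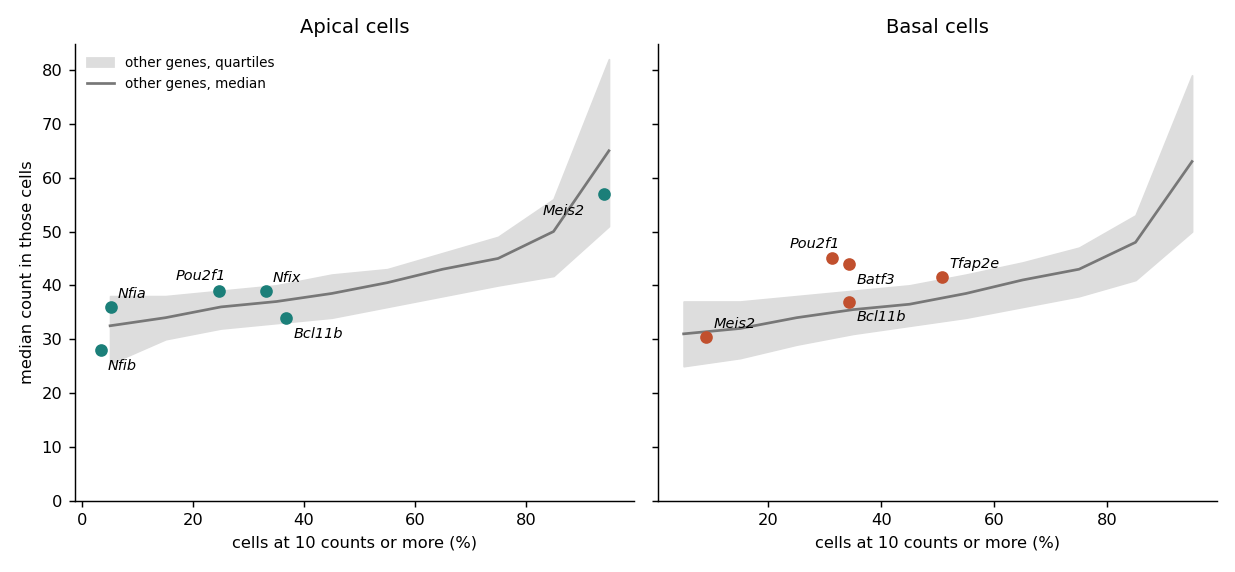
Median count of each gene in the cells with at least 10 counts (vertical) against the share of cells at 10 or more (horizontal, percent), in apical and basal cells; the grey line and band are the median and quartiles of all other genes in steps of share. Tfap2e, Batf3 and Pou2f1 stand above the band in basal cells or at its edge, and Meis2 sits within it in apical cells; members held by under 5 cells of a class are not drawn.

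Cells of each class held a median of 2 of the 8 factors and at most 5. None was held by 9 apical, 9 of 67 basal and 0 of 32 double-positive cells. The commonest combinations in apical cells were Meis2 alone (77 cells), Bcl11b with Meis2 (48), Meis2 with Nfix (34) and Meis2 with Pou2f1 (23). In basal cells they were Tfap2e alone (10), none of the 8 (9), and Pou2f1 alone and Tfap2e with Bcl11b (5 each). By the limit of 10 counts, most apical cells thus shared Meis2 and varied in the others, while no factor was held by as large a share of basal cells. Whether the factors not held were absent or not captured cannot be told apart.

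The number of cells that held both genes of a pair was set beside the number that the product of their shares gives. In apical cells Bcl11b and Nfix were held together by 34 cells against 33.4, and Nfix and Pou2f1 by 30 against 22.5. In basal cells Tfap2e and Bcl11b were held together by 13 against 11.7, Tfap2e and Pou2f1 by 11 against 10.7, and Batf3 and Bcl11b by 10 against 7.90. In the 32 double-positive cells Tfap2e and Pou2f1 were held together by 6 against 2.81, Batf3 and Bcl11b by 6 against 3.19, Bcl11b and Pou2f1 by 8 against 5.31, and Bcl11b and Meis2 by 11 against 12.75. The apical cells that held Nfix or Pou2f1 had a median total of 158413 and 162368, above the 145651 of those under 3 counts of either gene. These counts are a description of 1 chip, and the part of depth in them was not tested.

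Double-positive cells held the markers of both classes. Meis2 had a lowest value of 0, a median of 41 and a highest value 1.04 times that of the apical cells, and was held by 24 of 32 (75% [56.6–88.5]). Tfap2e ran from 0 to 65 with a median of 0.5 and was held by 9 (28.1% [13.7–46.7]). Batf3 was held by 6 (18.8% [7.21–36.4]) and Nfix by 7 (21.9% [9.28–39.97]). All 6 cells with Batf3 were in title numbers 11 to 20, which held 21 of the 32 cells.

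Tfap2e and Meis2 both reached 3 counts in 10 of 32 double-positive cells (31.3% [16.1–50.01]) and 10 counts in 6 (18.8% [7.21–36.4]). At 3 counts the share was 15.6% after thinning to 50000 counts, and 0% under a cross-talk correction that by its construction removes widely expressed genes such as Meis2. The product of the shares at 10 counts gives 6.75 cells. The same was seen at 10 counts in 3 of 67 basal cells, 0 apical cells, 3 empty chambers (0.923%) and 8 of 63 multiple-cell chambers (12.7% [5.65–23.5]). The multiple-cell chambers were not selected by G protein counts, and Gnao1 reached 10 counts in 31.7% of them. Double-positive cells were selected for both G proteins, so the 2 shares are not like for like. Whether some double-positive chambers held more than 1 cell was not tested.

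The 6 cells with both factors fell on either side of equal G protein counts. In 3 of them Gnai2 exceeded Gnao1, by 1.61 to 2.64 times, with Tfap2e at 44, 41 and 26 and Meis2 at 68, 62 and 42. In the other 3 Gnao1 exceeded Gnai2, by 2.14 to 2.88 times, with Tfap2e at 33, 44 and 47 and Meis2 at 15, 14 and 14. The cells with more Gnai2 therefore had the higher Meis2, while Tfap2e did not follow the G proteins. Together the 6 cells had a median sum of 183.5 over V1R genes, a V2R median 1.18 times as high, and a median total of 196804. In the 8 multiple-cell chambers with both factors these values were 243.5, 1.14 and 189205.

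Receptor counts were compared by the factor held. The 18 cells with Meis2 but not Tfap2e had medians of 93 counts of Gnai2 and 45 of Gnao1, and V2R counts exceeded V1R counts in 4 of them. The 3 cells with Tfap2e but not Meis2 had medians of 42 and 77, and V2R counts exceeded V1R in all 3. Over all 32 double-positive cells, V2R counts exceeded V1R counts in 6 of the 6 with Batf3, whose Gnai2 lay between 30 and 42 counts, in 7 of the 10 with Pou2f1 and in 0 of the 7 with Nfix. In those 7 cells Gnai2 exceeded Gnao1. No cell held both Tfap2e and Nfix, where the product of the shares gives 1.97 cells.

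**Figure D4:**
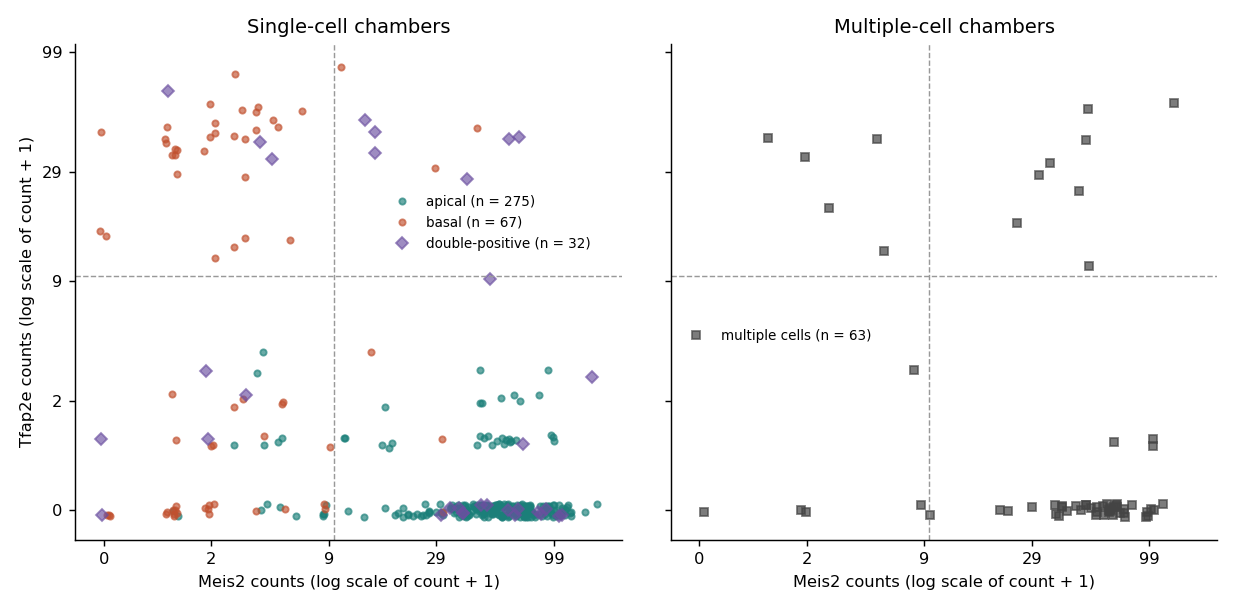
Tfap2e counts against Meis2 counts (both on a log scale of count + 1, points jittered) in single-cell chambers by class (left) and in multiple-cell chambers (right); dashed lines mark the limit of 10 counts. No apical cell lies beyond both lines, in the upper right, which holds 3 of 67 basal cells, 6 of 32 double-positive cells and 8 of 63 multiple-cell chambers.

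Cells near the class limits held factors of either class. Among the 7 double-positive cells with 30 to 39 counts of Gnai2, 4 held Tfap2e, 4 held Batf3 and 4 held Meis2. Among the 9 with 30 to 39 counts of Gnao1, 9 held Meis2 and 1 held Tfap2e. Just outside the apical class, the 6 cells with at least 30 counts of Gnai2 and 20 to 29 of Gnao1 held Meis2 in 5 and Tfap2e in 2. Just inside the basal class, the 7 cells with 20 to 29 counts of Gnai2 held Tfap2e in 3, Batf3 in 3 and Meis2 in 1, and the 4 cells with 30 to 39 counts of Gnao1 held Meis2 in 2, Tfap2e in 1 and Batf3 in 1. Just inside the apical class, the 7 cells with 30 to 39 counts of Gnai2, with a median total of 31092, held Meis2 in 2 and neither basal factor.

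The next question was whether the factors differed with Gap43, a protein of growing axons that marks younger neurons. Cells with at least 10 counts were called Gap43-positive, and these were 90 apical, 16 of 67 basal and 14 of 32 double-positive cells. Omp was held by 98.9% of Gap43-positive and 98.4% of Gap43-low apical cells, and by 100% and 96.1% of basal ones. The split is thus one among cells that express Omp. In apical cells none of the 8 members was called higher and 1 was called lower, Nfib, beside 4.32% of 16642 genes called higher and 8.32% called lower. Meis2 was held by 96.7% of Gap43-positive and 93% of Gap43-low cells, Nfix by 37.8% and 30.8%, Bcl11b by 42.2% and 34.1%, and Nfia by 4.44% and 5.41%. Their ratios of summed counts lay between 0.609 and 1.13. Pou2f1 was held by 33.3% [23.7–44.1] and 20.5% [15.0–27.1], a ratio of 1.27 [1.17–1.37]. The call of Nfib rested on 28 counts in Gap43-positive cells (5.24-fold [3.55–8.03] lower), with 1 Gap43-positive and 8 Gap43-low cells that held it. Nfib was 18.2-fold lower without a Gap43-positive cell of 20 counts and 4.20-fold lower without the cell with most counts. In those cases the call was not remade. Sustentacular or immune markers were carried by 3 Gap43-positive and 11 Gap43-low cells. With such cells left out Nfib was 6.16-fold lower and no longer called, on 8 against 90 counts, and the Nfia ratio of 0.609 became 1.24.

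In basal cells 7 members had enough counts, and 1 was called higher in Gap43-positive cells, Pou2f1, with none called lower, beside 6.75% of 12401 genes called higher and 12.9% called lower. Pou2f1 was held by 9 of 16 Gap43-positive cells (56.3% [29.9–80.2]) and 12 of 51 Gap43-low cells (23.5% [12.8–37.5]). Its ratio of summed counts was 3.12 [2.81–3.47], and 1.79 and 6.97 in the 2 sets of title numbers. The ratio was between 2.38 and 4.17 when any 1 cell was left out, with 2.38 without the cell with most counts. The call was not remade in those cases. Pou2f1 counts correlated with those of Gap43 at a Spearman's rho of 0.35 over the 67 basal cells. The shares with Pou2f1 had intervals that overlapped, so the difference rests on few cells.

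The basal factors themselves did not differ by Gap43 in basal cells by this rule. Tfap2e was held by 7 of 16 and 27 of 51 cells, a ratio of 0.876 [0.767–0.998], and Batf3 by 6 of 16 and 17 of 51, a ratio of 1.10 [0.950–1.27]. Bcl11b was held by 7 of 16 and 16 of 51, a ratio of 1.81 [1.58–2.07]. Meis2 was held by 3 of 16 and 3 of 51, with a ratio of 1.99 that was 1.39 without a cell of 44 counts. The Nfib ratio of 3.54 was 0.272 without 1 cell of 41 counts. In double-positive cells, Tfap2e was held by 3 of 14 Gap43-positive and 6 of 18 Gap43-low cells, Meis2 by 12 and 12, Bcl11b by 8 and 9, Nfix by 4 and 3, and Pou2f1 by 4 and 6.

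**Figure D5:**
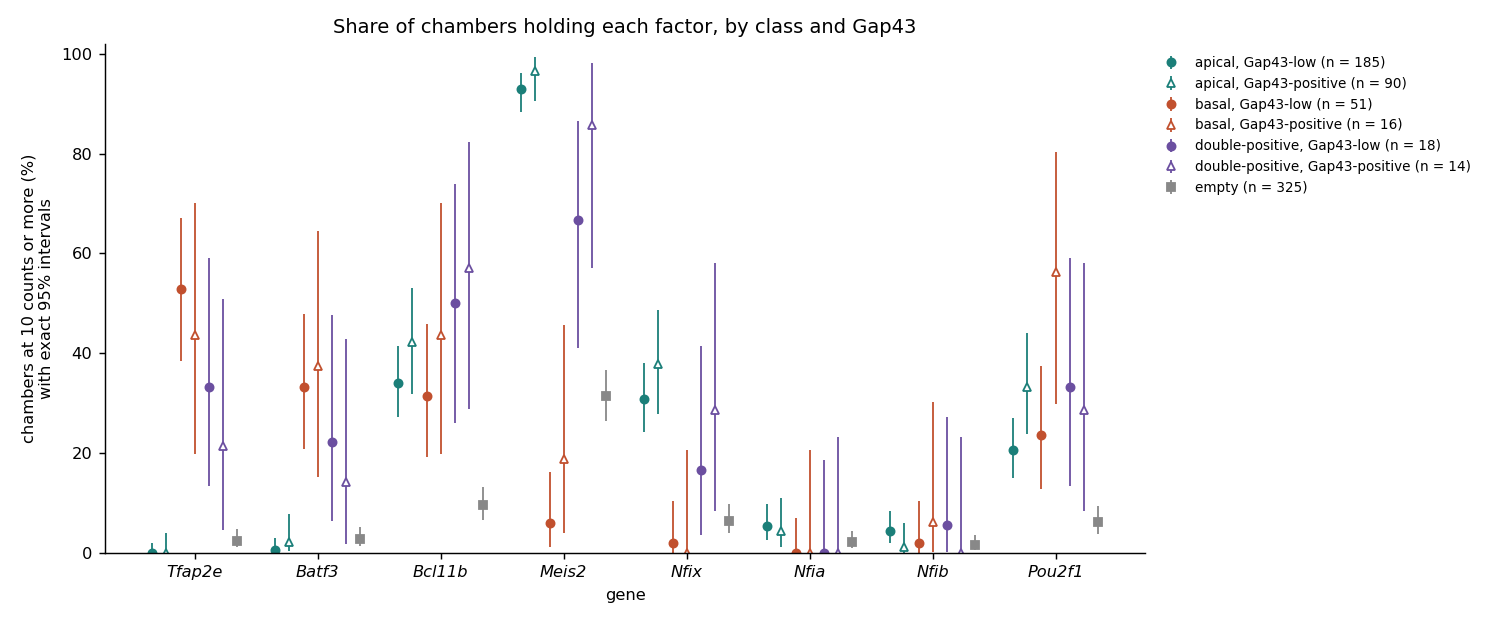
Share of chambers with at least 10 counts of each gene (percent, with exact 95% intervals) in apical, basal and double-positive cells split by Gap43, filled circles for under 10 counts of Gap43 and open triangles for 10 or more, and in empty chambers as grey squares. Tfap2e and Batf3 lie at or near 0 in apical cells (0 and 3 cells), and Pou2f1 in basal cells shows the widest gap between open and filled symbols, 9 of 16 against 12 of 51 cells.

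Relatives and partners of the members and genes of their pathways were taken from 8 lists. Of the 59 genes tested between apical and basal cells, 9 (15.3%) were higher and 3 (5.08%) lower in apical cells, beside the 13.1% and 5.89% over all genes. Of 7 tested homeodomain partners of Meis2 (Meis, Pbx and Pknox genes), 1 was higher in apical cells and none lower. This was Meis1, a close relative of Meis2, at 5.32-fold [4.53–6.28] and held by 31.3% of apical and 5.97% of basal cells. Of the 9 tested relatives of Batf3 and AP-1 partners 2 were higher in apical cells, of 9 lineage and Notch genes 2, of 18 olfactory neuron transcription factors 2 with 1 lower, and of 11 BMP and Smad genes 2 with 1 lower. The only tested relative of Tfap2e was lower in apical cells, and none of 3 tested nuclear factor I and POU relatives or of 1 Bcl11b relative was called. Median log2 ratios of the lists with more than 1 tested gene ran from 0.11 to 0.74, beside 0.12 over all genes.

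By Gap43, 2 of the 57 list genes tested in apical cells (3.51%) were higher and 5 (8.77%) lower in Gap43-positive cells, beside 4.32% and 8.32% over all genes. Of lineage and Notch genes, 4 of 9 were lower and none higher. Sustentacular or immune markers were carried by the 3 Gap43-positive and 11 Gap43-low cells given above, and without these cells 3 of 8 were lower, beside 6.81% of 16143 genes. Of AP-1 genes 1 of 9 was higher and 1 lower, and of BMP and Smad genes 1 of 11 was higher. In basal cells 2 of 46 list genes (4.35%) were higher and 6 (13%) lower, beside 6.75% and 12.9% over all genes. There 1 of 4 lineage and Notch genes was higher, Jag2, a Notch ligand, at 2.46-fold [1.98–3.04] and held by 31.3% of Gap43-positive and 11.8% of Gap43-low cells. Of the others, 2 of 7 AP-1 genes, 1 of 6 homeodomain partners, 1 of 3 nuclear factor I and POU relatives, and 2 of 9 BMP and Smad genes were lower, and 1 BMP or Smad gene was higher. None of the olfactory neuron transcription factors was called in either class, of 17 tested in apical and 16 in basal cells.

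The genes whose share of each cell's total count was most like that of each member over the cells of the 3 classes were found among 9395 genes outside the receptor families, by Spearman's rho of at least 0.3. These cells share 1 chip and differ in class, which the measure includes. For Tfap2e they were Cnpy1 (0.55), Gnao1 (0.55) and Robo2 (0.51), and for Batf3 Gnao1 (0.38), Cnpy1 (0.38) and Fam19a1 (0.33). For Meis2 they were Gng2 (0.50), Gnai2 (0.48) and Nrp2 (0.48), and for Nfix Gng13 (0.31). Both basal genes and both leading apical genes were thus most like G protein subunits and other genes of their class. For Nfib they were Wfdc2 (0.38), S100a6 (0.38) and Nupr1 (0.35). No gene reached 0.3 for Bcl11b, Nfia or Pou2f1.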

How the data were processed

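Single cells were captured on 1 Fluidigm C1 chip with 5-base unique molecular identifiers, per the labels' protocols. The authors deposited whole-number counts per gene and chamber, with no normalization, in a table whose values ran from 0 to 662. Tools listed in the submitters' processing notes, with no role or order, are STAR 2.5.4b, SAMtools 1.5, UMI-tools 0.5.3, bcl2fastq and, from Subread, featureCounts 1.6.1, and the build listed is GRCm38 (mm10). The name of the deposited table speaks of fractional counting of multi-mapping reads, while all its values are whole, so how such reads entered the counts is unclear. Whether strand was used is not given in the sources used here. The table had 1 further column, of reads assigned to no chamber, which was not used. The labels gave 394 single cells, 325 empty chambers, 63 with multiple cells and 18 putative single cells. Total counts per single cell ran from 19215 to 260930 in apical, 40788 to 235382 in basal and from 78786 to 244795 in double-positive cells.

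The members, the gene lists and the markers were chosen with earlier results of these data known. Classes, the size rule and the limit of 10 counts are given with the results. In a ratio, a class at 0 was given 3 counts over the group as its floor. Shares have exact Clopper-Pearson 95% intervals and ratios exact conditional binomial 95% intervals, which treat each count as a separate molecule. To compare shares at equal depth, cells were thinned to 50000 counts, which left 269 of 275 apical, 66 of 67 basal and 32 of 32 double-positive cells. Chambers labelled as multiple cells stayed outside the 3 classes, and doublets were not called. The genes named are the 8 members, Gnai2, Gnao1, Gap43 and Omp, up to 3 genes most like each member, and list genes past the size rule that at least 25% of the higher class held. Other genes appear as markers. No genes were tested for differences between mice. The size rule and the ratio intervals were tried on simulated counts drawn around a common mean. Such counts lack the split of the real ones into held and close to 0, so performance on counts of that kind was not tested. Python 3.11.15, numpy 2.4.6, pandas 2.3.3, scipy 1.17.1 and matplotlib 3.10.9 were used.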

Additional observations from a re-analysis of the deposited data

Results flagged for a closer look

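The 18 putative single-cell chambers entered none of the comparisons. Tfap2e was held by 8 of them (44.4% [21.5–69.2]), above the 2.46% [1.07–4.79] of empty chambers, and Bcl11b likewise by 8 (44.4% [21.5–69.2]), above 9.54% [6.57–13.3]. These 2 values stood out because they lie in chambers left aside and above the level of chambers without a cell. Among the 63 empty chambers with at least 50000 counts, whose median total was 117588, the shares were 11.1% [4.59–21.6] and 42.9% [30.5–56]. The same putative chambers held Meis2 in 7 and Nfix in 0, with medians of 21.5 counts of Gnai2 and 40.5 of Gnao1 and a median total of 118238.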

How the results depend on the processing

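No paired analysis was possible because chambers are not linked to the pools of mice and no test was made. Of 48 alternative values of the main counts and shares, 43 stayed close and 5 moved. Genes apart between apical and basal cells numbered 3277 (2260 higher, 1017 lower), 7766 with a minimum of 1 count (2351 higher, 5415 lower) and 5329 without the requirement on title numbers (3750 and 1579). Double-positive cells with 3 counts of both Tfap2e and Meis2 were 31.3%, 15.6% after thinning and 0% under a cross-talk correction (3 times the 75th percentile of the same title row and number, plus 1), which by construction removes widely expressed genes such as Meis2. Basal cells without Tfap2e were 47.8% at 3 counts and 31.3% at 1 count. Of 461 values for single members and 1 gene list, 25.2% moved and none changed the direction of a call. Tfap2e was between 44.2-fold and 1370-fold higher in basal cells. Pou2f1, not called in the main comparison, was called higher in basal cells in 7 of 13 alternatives. Over all its alternatives, called or not, Pou2f1 was 1.59-fold to 3.07-fold higher there. The alternatives that left out 1 cell, or the sustentacular-like and immune-like cells for Gap43, those on empty chambers under 50000 counts, and the double-positive share by title numbers, were chosen after seeing the data. Depth limits low counts, as the thinned share shows, and shares in groups of 14 to 32 cells have wide intervals.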

Other observations

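The 20 unclassified cells, most of them low in both G proteins, included cells with Nfia and Nfib. Nfia was held by 4 of 20 (20% [5.73–43.7]), against 5.09% of apical and 0% of basal cells, and Nfib by 5 of 20 (25% [8.66–49.1]), against 3.27% and 2.99%. Nfix was held by 3 and Meis2 by 13. Among the 14 cells with under 30 counts of both Gnai2 and Gnao1, 4 held Nfia, 4 held Nfib and 10 carried sustentacular or immune markers. Tfap2e was held by 4 of the 20 and Batf3 by 1.

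Counts of 1 to 9 of the basal genes were compared between title rows with and without a chamber that held the gene. Among cells under 10 counts of Tfap2e, 17.8% [13.5–22.8] had 1 to 9 counts where the same title row held a chamber at 10 or more, and 12.1% [5.38–22.5] where it held none. For Batf3 the shares were 13.2% [8.91–18.7] and 8.28% [4.48–13.7]. The intervals overlap for both genes.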
